A study of Mus musculus with 21 samples.

Results

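The genes of MHC class II antigen presentation were followed in mouse liver after titanium dioxide nanoparticles had been put into the airways. The set was chosen by gene symbol: H2-Aa, H2-Ab1, H2-Eb1, H2-DMa, H2-DMb1, H2-Oa, H2-Ob, Cd74 and Ciita, 9 of the genes of the array, on which 16535 named genes were found through the RefSeq accession of each probe. A probe was matched for 8 of the 9, by 13 probes in all. H2-Eb1 was not matched and is not described further by expression. A total of 7 genes passed the filter on dim probes, which asked for liver signal well above background in 50% or more of a group's arrays. H2-Ob did not pass, because its probe was well above background on 0 of 21 arrays.

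Liver RNA of 21 female C57BL/6 mice was hybridised to Agilent arrays with 2 colours, 1 array per mouse. The question of the comparisons was whether particles deposited in the lung are followed by a change of gene expression in the liver. The mice were 5 to 7 weeks old at purchase and were kept for 1 to 3 weeks before the experiment, and no transgene or deletion is named in the labels. TiO2 mice received 162 µg of nano-TiO2 once by instillation into the trachea, in 40 µl of saline with 10% cell-free lung lavage fluid from untreated mice, and control mice received the same fluid without particles. Livers were taken after 1 day (5 control and 6 TiO2 mice) or after 28 days (4 control and 6 TiO2 mice). The labels call the mice of a group biological replicates. Each array carried liver RNA in the red dye and the same reference RNA, pooled from 11 mouse cell lines, in the green dye, and no dyes were swapped. Levels are therefore log2 ratios of liver over reference, in which 0 stands for equal signal in both dyes, and a level of one probe cannot be set against that of another. Mice are named by group and a replicate number that follows the order of deposition and pairs no animals.

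Class II molecules are pairs of an alpha and a beta chain that display peptides from endosomes to CD4+ T cells. H2-Aa and H2-Ab1 encode the chains of the A molecule, and H2-Eb1 encodes the beta chain of the E molecule, which C57BL/6 mice do not display because their E alpha gene is defective. Cd74, the invariant chain, blocks the peptide groove and guides new class II molecules to endosomes. There the H2-DM pair (H2-DMa, H2-DMb1) removes the last piece of the invariant chain and edits the peptides, while the H2-O pair (H2-Oa, H2-Ob) restrains H2-DM, chiefly in B cells. CIITA, the product of Ciita, is a co-activator that switches on class II, Cd74 and H2-DM genes together from promoters with shared sequence boxes. In the liver the constitutive sources of class II are Kupffer cells, dendritic cells and B cells, with lower amounts in the sinusoidal endothelium, and interferon gamma can induce it more widely.

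Promoter sequences are shown as background to the set. They do not link all the genes compared below, since H2-Ab1, Cd74 and Ciita had no sequence to search. RefSeq windows of 300 bases around the gene start (assembly GRCm38.p6) were found for 6 of the 9 genes: H2-Aa, H2-Eb1, H2-DMa, H2-DMb1, H2-Oa and H2-Ob. They were searched on both strands for GNAAC, letters of the X box, followed after 22 to 28 bases by TGATTGG, letters of the Y box. The pattern was chosen with these windows in view, and the 2 motifs do not overlap. Below are bases -120 to -21 relative to the annotated start, on the strand of the gene, with the GNAAC and TGATTGG letters in capitals. H2-Aa lies on the minus strand at chr17:34287844-34287943, and the others lie on the plus strand at chr17:34305747-34305846 (H2-Eb1), chr17:34153071-34153170 (H2-DMb1), chr17:34092259-34092358 (H2-Oa) and chr17:34238785-34238884 (H2-Ob).
H2-Aa: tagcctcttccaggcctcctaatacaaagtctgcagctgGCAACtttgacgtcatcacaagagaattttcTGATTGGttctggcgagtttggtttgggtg
H2-Eb1: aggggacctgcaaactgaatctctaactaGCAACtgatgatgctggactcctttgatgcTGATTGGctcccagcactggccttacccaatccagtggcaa
H2-DMb1: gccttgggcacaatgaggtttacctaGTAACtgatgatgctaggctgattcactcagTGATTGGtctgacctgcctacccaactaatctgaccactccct
H2-Oa: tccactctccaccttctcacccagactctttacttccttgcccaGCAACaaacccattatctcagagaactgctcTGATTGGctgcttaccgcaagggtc
H2-Ob: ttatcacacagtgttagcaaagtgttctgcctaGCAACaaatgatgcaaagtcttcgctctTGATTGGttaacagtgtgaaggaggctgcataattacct
The letters between the boxes number 26 in H2-Aa, H2-DMb1 and H2-Oa, 25 in H2-Eb1 and 23 in H2-Ob. Over all 32851 windows of 300 bases in the table, 72 (0.219%) held the pair, from 67 of 27025 genes, whereas GNAAC alone was in 84.8% and TGATTGG alone in 7.82%. The pair was in 5 of the 6 genes with a window. The 2 windows of H2-DMa both held GNAAC but not TGATTGG, and so not the pair. Detection differed among the probes of genes with the pair. The H2-Ob probe was at background on every array, and the H2-DMb1 probe used was above it on every array. A second H2-DMb1 probe was above it on 5 of 21 arrays. A difference between probes cannot be told apart here from a difference between genes.

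Liver identity was checked, since the labels describe RNA extraction from lung although the tissue is given as liver. The 6 hepatocyte markers on the array were well above background on every array, with mean log2 ratios of 5.24 to 6.76 over mice. Of 8 lung markers 5 passed the filter, with means of -0.79 to -0.15: Ager was above background on 0 of 21 arrays, Sftpc and Sftpb on 2, Sftpa1 on 4, Aqp5 on 9, Napsa on 13, Slc34a2 on 16 and Scgb1a1 on 17. The arrays were scanned on 3 days, with all 4 groups on each day, and liver signal was well above background for 20879 to 26616 probes on arrays of scan day 2 against 12985 to 16903 on the others. Values within scan days are therefore given beside the comparisons. Liver is a mixture of cells, so fewer cells of a type and less RNA per cell cannot be told apart in any level given here.

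No class II gene passed the test for a change in the liver after TiO2, at day 1 or at day 28, and mice of the same group differed more than the groups did. H2-Ab1 stood 3.30-fold apart between the lowest and the highest of the 21 mice, Cd74 2.84-fold and H2-DMb1 2.52-fold. For each of these genes the lowest mouse was on scan day 1 and the highest on scan day 3. The ranges therefore also hold differences between scan days. Over the 21 mice the levels ran together: a mouse high in one of these genes tended to be high in the others. On scan day 1 this did not hold for H2-Ab1 and Cd74 (r = 0.26, 6 mice). The levels are given first, in the order of the genes' roles.

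H2-Aa, the alpha chain of the A molecule, had log2 ratios of 0.92, 0.69, 0.70, 0.94 and 0.75 in the 5 control mice at day 1. The 6 TiO2 mice at day 1 ran from 0.45 through a median of 0.82 to 1.25. Control mice at day 28 had 0.32, 0.97, 0.80 and 0.52, and TiO2 mice at day 28 ran from 0.31 through 0.72 to 1.17. The control mice at day 1 lay close together, and the ranges of all 4 groups overlapped. Means were 0.80 ± 0.12 (SD, n = 5) and 0.83 ± 0.29 (SD, n = 6) at day 1, and 0.65 ± 0.29 (SD, n = 4) and 0.73 ± 0.29 (SD, n = 6) at day 28, control before TiO2. The probe was well above background on 21 of 21 liver arrays and in the reference on 5, so its denominator is dim. A second H2-Aa probe, above background in liver on 17 arrays, gave TiO2 minus control differences of -0.097 at day 1 and 0.069 at day 28. It followed the first over mice with r = 0.53 after group and scan day were removed.

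H2-Ab1, the beta chain of the same molecule, had log2 ratios of 2.38, 3.12, 3.09, 3.09 and 2.59 in control mice at day 1. TiO2 mice at day 1 ran from 1.97 through 2.60 to 3.69, a span that held all control mice of that day. Control mice at day 28 had 2.68, 3.31, 2.88 and 2.98, and TiO2 mice at day 28 ran from 2.41 through 3.14 to 3.55. The lowest and the highest of the 21 mice were both TiO2 mice of day 1. Means were 2.85 ± 0.35 (SD, n = 5) and 2.77 ± 0.66 (SD, n = 6) at day 1, and 2.96 ± 0.26 (SD, n = 4) and 3.03 ± 0.51 (SD, n = 6) at day 28. With group and scan day removed, its 3 probes followed one another over the mice with r of 0.78 to 0.94. With no terms removed, the brightest probe had r = 0.85 with the probe printed 10 times per array. The third probe followed these 2 less closely, with r of 0.55 and 0.54.

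Cd74, the invariant chain, had log2 ratios of -0.23, 0.09, -0.22, -0.36 and -0.39 in control mice at day 1 and -0.51, 0.12, -0.27 and -0.12 at day 28. TiO2 mice ran from -0.70 through -0.48 to 0.57 at day 1 and from -0.94 through -0.037 to 0.42 at day 28. As with H2-Ab1, the TiO2 mice reached both lower and higher than the controls at either time. Means were -0.22 ± 0.19 (SD, n = 5) against -0.28 ± 0.52 (SD, n = 6) at day 1, and -0.19 ± 0.26 (SD, n = 4) against -0.086 ± 0.50 (SD, n = 6) at day 28. The larger SD of the TiO2 groups for H2-Ab1 and Cd74 is a description, since the difference in spread was not tested.

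H2-DMa and H2-DMb1 encode the peptide editor. H2-DMb1 had log2 ratios of 0.31, 0.83, 0.84, 0.45 and 0.62 in control mice at day 1 and 0.24, 1.25, 0.83 and 0.69 at day 28. TiO2 mice ran from 0.23 through 0.58 to 1.56 at day 1 and from 0.34 through 0.81 to 1.11 at day 28, overlapping the controls throughout. H2-DMa had -0.06, -0.17, -0.27, -0.25 and -0.64 in control mice at day 1 and -0.29, -0.29, -0.46 and -0.49 at day 28. Its TiO2 mice ran from -0.52 through -0.062 to 0.30 at day 1 and from -0.57 through -0.16 to -0.034 at day 28. At day 28, 5 of 6 TiO2 mice were above every control mouse in H2-DMa and 1, replicate 2, was below all of them. A dimmer second probe of H2-DMb1, above background on 5 arrays, did not pass the filter.

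H2-Oa and Ciita were dim. H2-Oa, the alpha chain of the DM inhibitor, was well above background on 11 of 21 arrays for either of its 2 probes, and the probe used ran from -0.32 to 0.22 over all mice. These probes went opposite ways over the mice (r = -0.23 with group and scan day removed), so the order of the mice for H2-Oa is uncertain. Ciita, the transactivator, was above background on 9 arrays, 8 of them of scan day 2, and ran from -0.21 to 0.73. Its group means were 0.33 ± 0.18 (SD, n = 5) and 0.29 ± 0.35 (SD, n = 6) at day 1 and 0.19 ± 0.35 (SD, n = 4) and 0.18 ± 0.32 (SD, n = 6) at day 28, control before TiO2. The H2-Ob probe, not well above background in liver or in reference on any of the 21 arrays, ran from -0.24 to 0.020. This is the movement of 1 probe without signal in either dye. It sets no floor for Ciita or H2-Oa, whose probes were above background in the reference on 16 and 21 arrays.

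**Figure D1:**
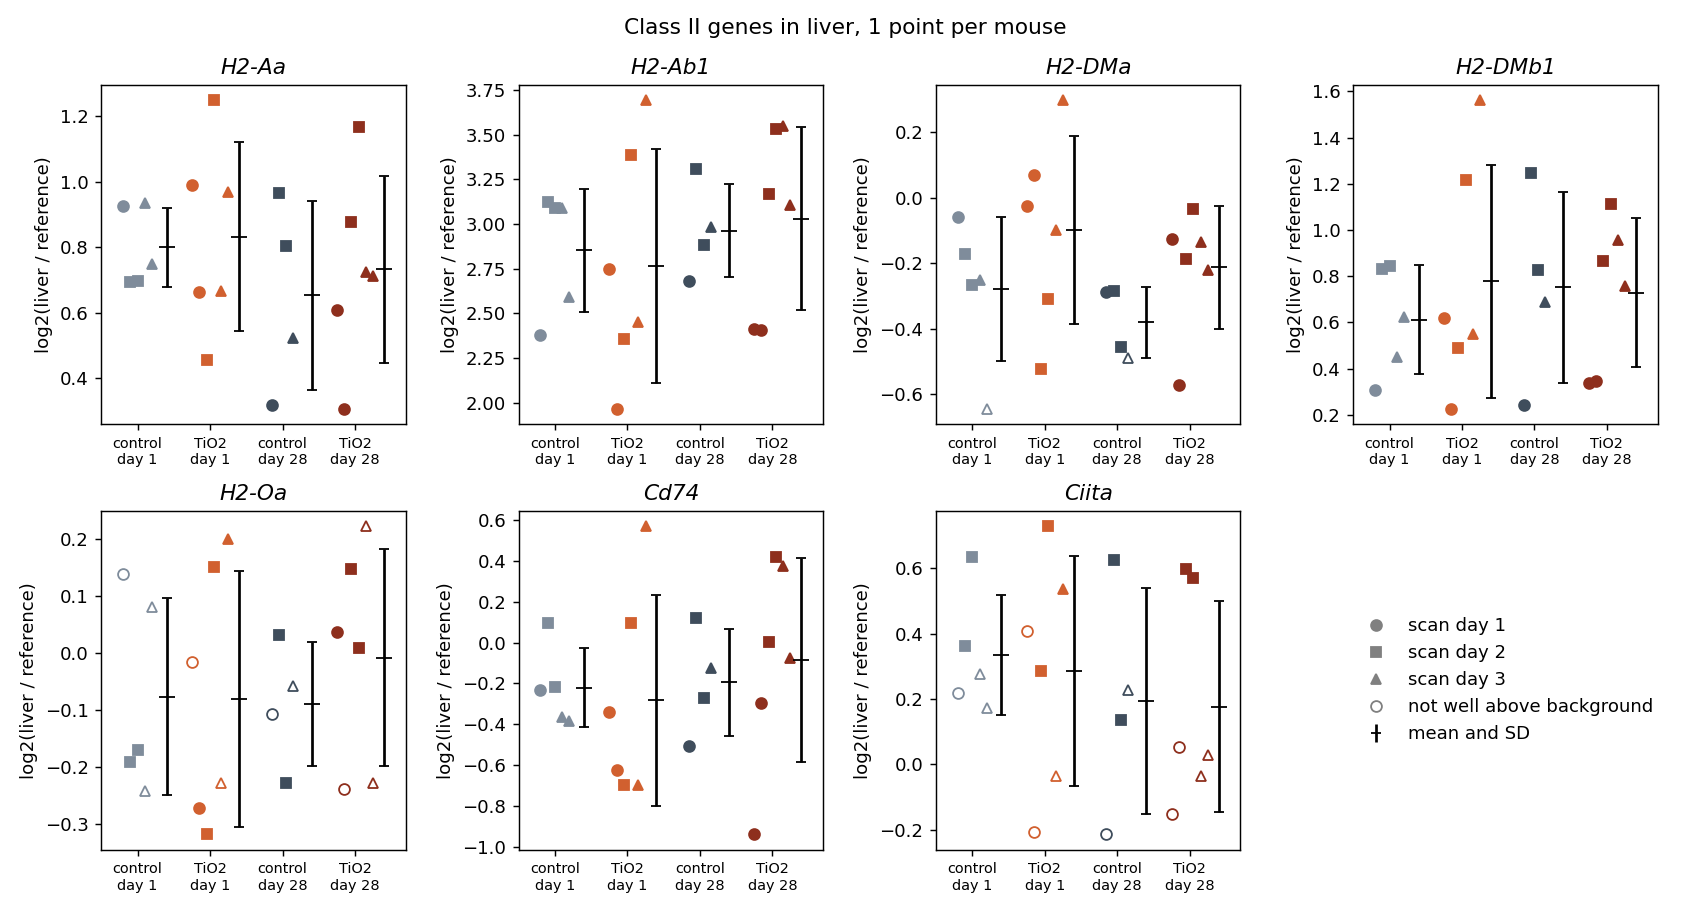
Log2 ratio of liver over reference (vertical axis, scaled for each gene) for the 7 class II genes that passed the filter, with 1 point per mouse in the 4 groups. Marker shape gives the scan day, open markers stand for a probe not well above background on that array, and bars beside the points give mean and SD. The groups overlap in every panel, and the TiO2 mice of day 1 span 1.97 to 3.69 for H2-Ab1.

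At day 1, TiO2 against control, 3 of the 7 genes were higher and 4 lower, with a median difference of -0.0035 on the log2 scale, against -0.0065 over all 17640 features tested. None of the 7 was called at an adjusted p of 0.05 in limma, where 0% of all features were, and 0 of 7 had an unadjusted p under 0.05, against 1.72% of all features. H2-DMa had the largest difference, 0.18 ± 0.13 (SE, 95% interval -0.097 to 0.46). H2-DMb1 differed by 0.17 ± 0.22 (SE, interval -0.29 to 0.62). The intervals were wider for the genes that varied most between mice: -0.66 to 0.49 for H2-Ab1, whose difference was -0.086, and -0.55 to 0.42 for Cd74, whose difference was -0.061. H2-Aa differed by 0.031 (interval -0.29 to 0.35), H2-Oa by -0.0035 (interval -0.25 to 0.24) and Ciita by -0.047 (interval -0.42 to 0.33). At these sizes of group, a change of the H2-Ab1 ratio within that interval would not have been told from the spread.

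Within scan days the day 1 differences took both signs for 6 of the 7 genes. H2-Ab1 was at -0.019, -0.23 and 0.23 within scan days 1, 2 and 3, and Cd74 at -0.25, -0.24 and 0.31. H2-DMa was at 0.081, -0.20 and 0.55, and was thus largest on scan day 3. H2-DMb1 alone among the 7 was higher on all 3 scan days, at 0.12, 0.015 and 0.52. With scan day as a block, its difference was 0.24 ± 0.16 (SE), with an adjusted p of 0.99 in limma.

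At day 28, 5 of the 7 genes were higher in TiO2 mice and 2 lower, with a median difference of 0.080, against 0.0020 over all features. Again 0 of 7 were called in limma, as were 0% of all features, and 0 of 7 had an unadjusted p under 0.05, against 0.918% of all features. The differences were 0.17 ± 0.14 for H2-DMa (SE, interval -0.13 to 0.46), 0.11 ± 0.25 for Cd74 (interval -0.41 to 0.63) and 0.066 ± 0.29 for H2-Ab1 (interval -0.54 to 0.68). H2-Aa differed by 0.080, H2-Oa by 0.081, H2-DMb1 by -0.023 and Ciita by -0.017, each by less than its SE. H2-Aa and H2-Oa were higher on all 3 scan days, by 0.14, 0.14 and 0.20 for H2-Aa and by 0.0061, 0.18 and 0.054 for H2-Oa. The H2-Ab1 probe that is printed 10 times per array gave 0.29, and the remaining H2-Ab1 probe gave 0.24. Both values are larger than the 0.066 of the brightest probe, which represents the gene here, so its size depends on the probe.

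**Figure D2:**
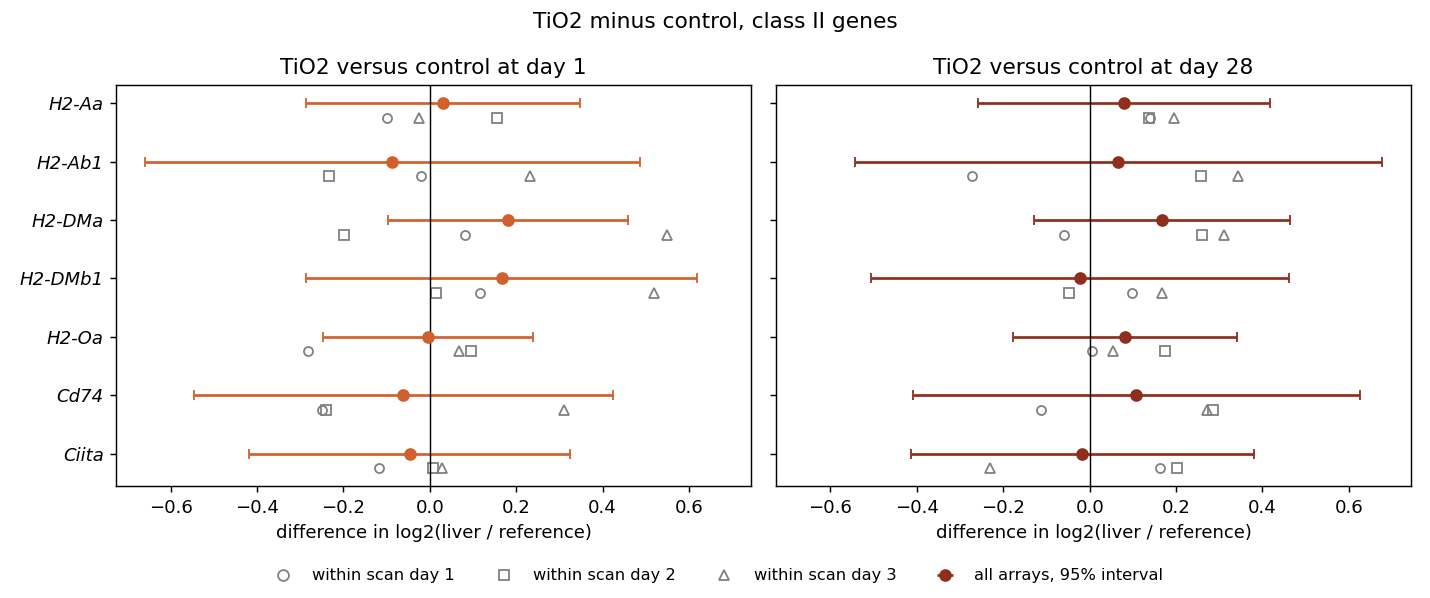
Difference in log2 ratio, TiO2 minus control, at day 1 (left) and day 28 (right) for 7 class II genes. Filled points with bars give the limma estimate over all arrays with its 95% interval, and open markers give the difference of means within each scan day. Every interval includes 0, and the intervals of H2-Ab1 and Cd74 are wider than that of H2-DMa.

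The change of the TiO2 effect from day 1 to day 28 was also tested, and 0 of 7 genes passed at either level, where 0% of all features were called and 0.748% had an unadjusted p under 0.05. The change was 0.15 ± 0.40 (SE) for H2-Ab1, 0.17 ± 0.34 for Cd74 and -0.19 ± 0.32 for H2-DMb1, all within their error. Control mice of day 28 against those of day 1 gave 3 genes higher and 4 lower, none called, where 0% of all features were called and 3% had an unadjusted p under 0.05. The largest of these was H2-Aa at -0.15 ± 0.17 (SE). TiO2 mice of day 28 against those of day 1 likewise gave 3 higher and 4 lower, none called, where 0.034% of all features (6) were called and 3.72% had an unadjusted p under 0.05. H2-Ab1 had the largest difference there, 0.26 ± 0.26 (SE).

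Over the 35 differences of 7 genes in 5 comparisons, which share groups, the smallest unadjusted p was 0.19 (H2-DMa at day 1) and the smallest adjusted p 0.9996, both in limma. With scan day as a block, again 0 of 35 had an unadjusted p under 0.05, while the share of all features rose to 4.08% and 3.09% for TiO2 at day 1 and day 28. It was 2.96% for the change of the effect, 7.73% for the controls over time and 8.72% for the TiO2 mice over time, and the adjusted calls were 0% in the first 4 comparisons and 0.108% in the last.

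The spread between mice of 1 group differed among the genes of the pathway. The pooled SD within groups was 0.49 for H2-Ab1, higher than that of 92.7% of the 17429 features with a value on every array, whose median was 0.23. The same percentile was 87.6 for Cd74, 84.8 for H2-DMb1 and 73.1 for Ciita, and it was 59.2 for H2-Aa, 44.6 for H2-DMa and 27.6 for H2-Oa. Scan day was left in these SDs, and the percentiles were not computed without it. Group accounted for 6.3% of the variance of H2-Ab1 after scan day, scan day for 42.1%, and 51.6% remained. The 2 terms were fitted as additive, so the remainder also holds any difference of the group effect between scan days. For Cd74 these shares were 4.8%, 24.1% and 71.1%. Scan day accounted for 47.3% in H2-DMb1 and 48.9% in Ciita, and for 14.8%, 4.3% and 1.1% in H2-Aa, H2-DMa and H2-Oa. With group and scan day removed, the SD was 0.39 for H2-Ab1, 0.38 for Cd74, 0.28 for H2-DMb1 and 0.23 for Ciita. With scan day left in, it was 0.49, 0.42, 0.39 and 0.31 in the same order. Scan day 1 was the lowest for the probes used for H2-Ab1 and Cd74. Mean log2 ratios on scan days 1, 2 and 3 were 2.43, 3.11 and 3.06 for H2-Ab1 and -0.49, -0.057 and -0.10 for Cd74. The H2-Ab1 values here are those of its brightest probe. The H2-Ab1 probe printed 10 times per array had a percentile of 89.2, a scan day share of 25.4% and means of 1.59, 1.79 and 2.11. The remaining H2-Ab1 probe had a percentile of 71.0, a share of 13.2% and means of 0.88, 1.02 and 0.78. Its mean was lowest on scan day 3.

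The array gives a direct measure of technical error for H2-Ab1, because 1 of its probes is printed 10 times on each array. Its spots had an SD of 0.098 to 0.60 within an array (median 0.18), which puts the standard error of an array's mean at 0.031 to 0.19 (median 0.058). The SD between the 21 mice was 0.43. The lowest mouse, TiO2 day 1 replicate 3, had 1.07 and the highest, TiO2 day 28 replicate 5, had 2.83. These 2 mice differed 3.37-fold on this probe, a log2 gap of 1.75. Spot SDs of over 0.3 were found on all 6 arrays of scan day 1, where the probe was read with less precision, and on 1 other array. The spots measure error on the array alone, since each mouse had 1 array.

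**Figure D3:**
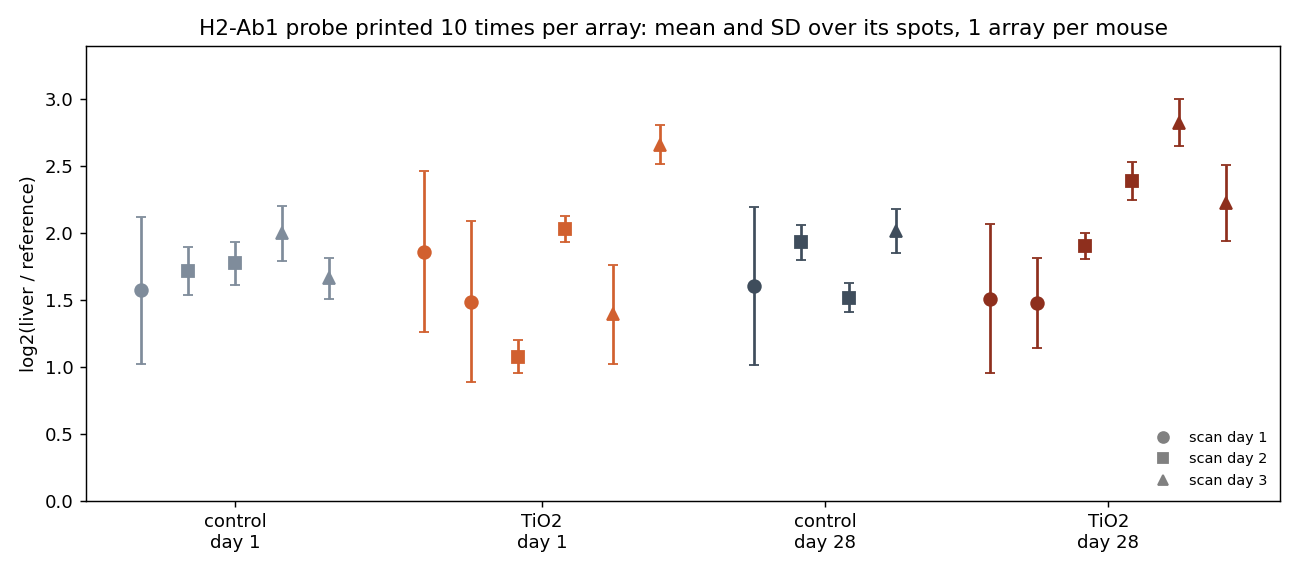
Mean log2 ratio of liver over reference (vertical axis) of the H2-Ab1 probe printed 10 times per array, 1 point per mouse, ordered by group and replicate number. Bars are the SD over 8 to 10 spots of an array and marker shape is the scan day. The means run from 1.07 to 2.83, and 5 of the 6 bars of scan day 1 are longer than every bar of the other scan days.

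The class II genes moved together from mouse to mouse. With group and scan day means removed from each gene, H2-Ab1 and Cd74 correlated over the 21 mice with Pearson r = 0.84 (permutation p = 1e-05, the smallest that 100000 resamples can give, adjusted p = 3e-05) and Spearman rho = 0.80 (permutation p = 4e-05, adjusted 0.00012). Without the 2 mice farthest from the median of H2-Ab1, r was 0.74. H2-Aa and H2-Ab1 gave r = 0.61 (permutation p = 0.0036, adjusted 0.0054) and rho = 0.59 (permutation p = 0.0052, adjusted 0.0078), and r = 0.47 without the 2 farthest mice. H2-Aa and Cd74 gave r = 0.54 (permutation p = 0.013, adjusted 0.013) and rho = 0.48 (permutation p = 0.031, adjusted 0.031), and r = 0.36 without the 2 farthest. All tests were two-sided, and 3 relations were tested, with adjustment over them. The permutations shuffled the 21 residuals freely, without allowance for the group and scan day means already removed. These permutation p are therefore likely too small, which matters most for H2-Aa with Cd74, the weakest of the 3.

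The relation was not the same on every scan day. H2-Ab1 and Cd74 correlated with r = 0.96 on scan day 2 (8 mice) and 0.95 on scan day 3 (7 mice), but with 0.26 on scan day 1 (6 mice), where it did not hold. H2-Aa and H2-Ab1 gave 0.03, 0.87 and 0.47 on scan days 1, 2 and 3, and H2-Aa and Cd74 gave 0.21, 0.81 and 0.34. Scan day 1 is also the day with the largest spot SDs for H2-Ab1.

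As a description without tests, all 21 pairs of the 7 genes had a positive r, from 0.25 (H2-DMa with Ciita) to 0.86 (H2-DMb1 with H2-Ab1), and H2-DMb1 with Cd74 had 0.85. The points of a pair share an array, and so share its depth of signal and its RNA. Set against the mean of H2-Aa, H2-Ab1 and Cd74 (without itself for any of the 3), every H2-Ab1 probe had r of 0.79 to 0.90, Cd74 0.80, the H2-Aa probes 0.60 and 0.78, H2-DMb1 0.89 and 0.69, Ciita 0.72 and H2-DMa 0.62. The H2-Ob probe, at background throughout, had r = 0.044. The H2-Oa probes had 0.67 and -0.37, so no likeness is read for H2-Oa. H2-Eb1, without a probe, has no value.

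The mean of these 3 genes ranked mice of different groups side by side. The highest were TiO2 day 1 replicate 6 (1.74), TiO2 day 28 replicate 4 (1.71), TiO2 day 1 replicate 4 (1.58) and TiO2 day 28 replicate 5 (1.55), followed by control day 28 replicate 2 (1.46). The lowest were TiO2 day 1 replicate 2 (0.67), TiO2 day 28 replicate 1 (0.69) and TiO2 day 1 replicate 3 (0.70). TiO2 mice thus held both ends of the order, and the 9 control mice lay between rank 5 and rank 16 of 21. Scan day was left in these means, and the arrays of scan day 1 held ranks 12, 14, 16, 18, 20 and 21. With group and scan day removed, the control mice ran from -0.21 to 0.22. The ends were then TiO2 day 1 replicate 3 (-0.58) and TiO2 day 1 replicate 6 (0.53).

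**Figure D4:**
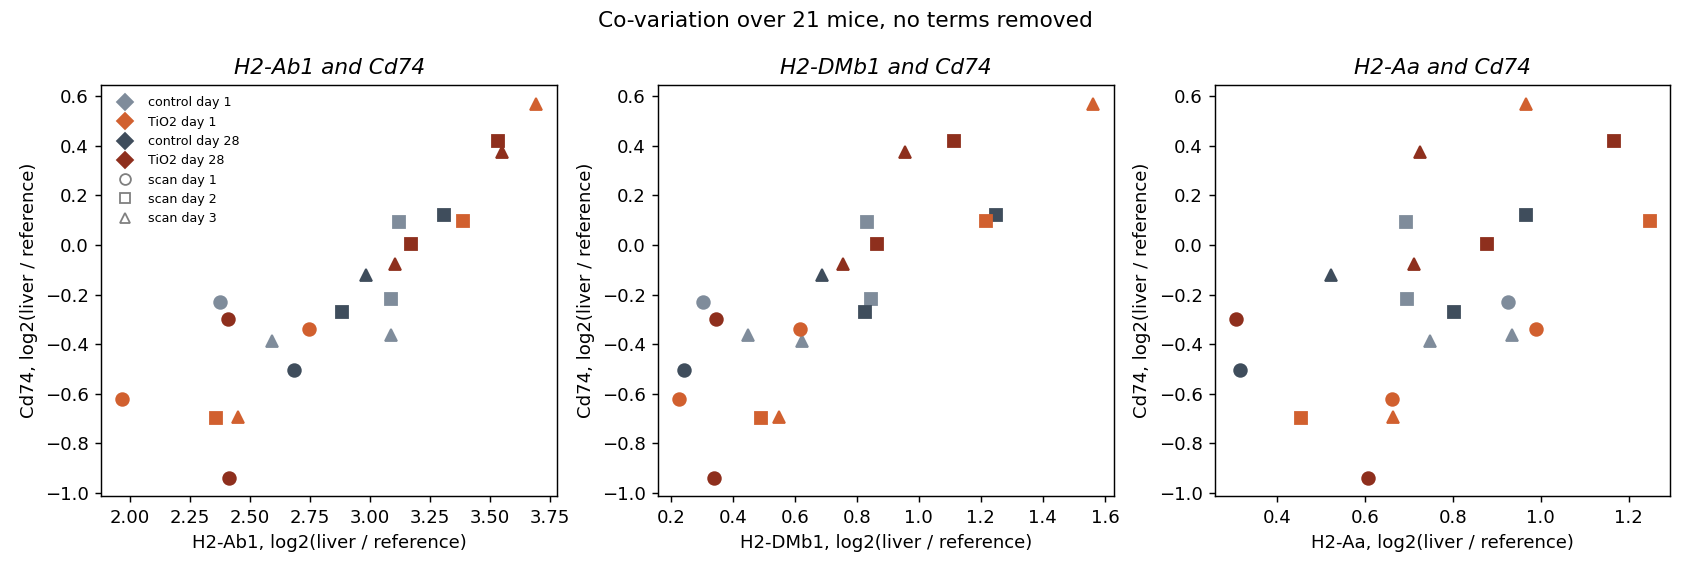
Log2 ratios of liver over reference of Cd74 (vertical axes) against H2-Ab1, H2-DMb1 and H2-Aa (horizontal axes), 1 point per mouse with no terms removed. Colour gives the group and shape the scan day. The mice lie along a rising band for H2-Ab1 and H2-DMb1 and scatter more widely for H2-Aa, and the circles of scan day 1 lie at the low end without a clear slope.

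Genes whose levels followed the class II genes most closely were searched among 11095 other named genes, by Pearson r over the 21 mice with the mean of H2-Aa, H2-Ab1 and Cd74 after group and scan day were removed. The median r of all genes was 0.076 and the 95th percentile 0.47. The 10 genes with the highest r were Tgtp1 (0.84), Cxcl9 (0.81), Il18bp (0.80), Pilrb1 (0.79), Cd300c2 (0.77), Cd44 (0.77), Csf2ra (0.76), Ms4a6b (0.76), Pilra (0.76) and C1qb (0.76). Tgtp1 is an interferon-induced GTPase, Cxcl9 a chemokine induced by interferon gamma, and Il18bp the soluble inhibitor of interleukin 18. Pilra and Pilrb1 are paired receptors of myeloid cells, Csf2ra is a receptor chain for GM-CSF, and C1qb a chain of complement C1q made by macrophages. Being the highest of many, these values are a description and carry no p.

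Gene lists of cell types in which class II is known were set beside this. The 11 Kupffer cell and macrophage markers tested had a median r of 0.66, from 0.34 to 0.76, and 8 of the 11 were above the 95th percentile of all genes. Among them were C1qb (0.76), the growth factor receptor Csf1r (0.72), the complement receptor Vsig4 (0.72) and the Kupffer cell lectin Clec4f (0.66). Below it were Lyz2 (0.42), C1qc (0.35) and Adgre1 (0.34). Part of this likeness rests on few mice. Without the 2 mice farthest from the median of the class II mean, r ran from 0.0023 for Adgre1 and 0.038 for C1qc to 0.63 for C1qb. The percentile was not computed again without these mice. All 11 were well above background on every array. Their mean log2 ratio ran over mice from 2.46 to 3.02 in control day 1, 2.41 to 3.82 in TiO2 day 1, 2.52 to 3.13 in control day 28 and 2.38 to 3.44 in TiO2 day 28. The mouse with the highest class II mean, TiO2 day 1 replicate 6, also had the highest Kupffer marker mean, 3.82, and the mouse with the lowest, TiO2 day 28 replicate 1, at 2.38, was among the lowest in class II. The part of these markers in the class II levels was not tested.

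Markers of dendritic and B cells were mostly dimmer, and their lists had lower median r. Of 10 dendritic cell markers 6 were tested, with a median r of 0.23, and 3 of the 6 were above the 95th percentile of all genes. These were Clec10a (0.68), the integrin Itgax (0.63) and Batf3 (0.55). Without the 2 mice farthest from the median of the class II mean, their r was 0.57, 0.56 and 0.30. With all mice and no terms removed, it was 0.69 for Clec10a but -0.016 for Itgax and 0.0032 for Batf3. The lowest of the 6, with group and scan day removed, was the transcription factor Zbtb46 (-0.47). The dendritic markers Clec9a, Cd209a and Siglech were above background on 0 of 21 arrays and Ccr7 on 2, whereas Clec10a was on 10, Flt3 on 12, Xcr1 and Itgax on 14, Zbtb46 on 18 and Batf3 on 21. Of 10 B cell markers 7 were tested, with a median r of 0.24, and the B cell receptor chains Cd79b and Cd79a were at 0.54 and -0.36. Pax5, a transcription factor of B cells, was above background on 0 of 21 arrays. The mean over the B cell markers ran from -0.76 to -0.40 over all mice, with overlapping ranges in the 4 groups. The 8 sinusoidal endothelial markers had a median of 0.25 and the 6 hepatocyte markers 0.29, while 6 T cell markers had 0.068 with Cd3d at 0.68. Cholangiocyte, neutrophil and lung markers had medians of 0.27, 0.25 and 0.072.

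**Figure D5:**
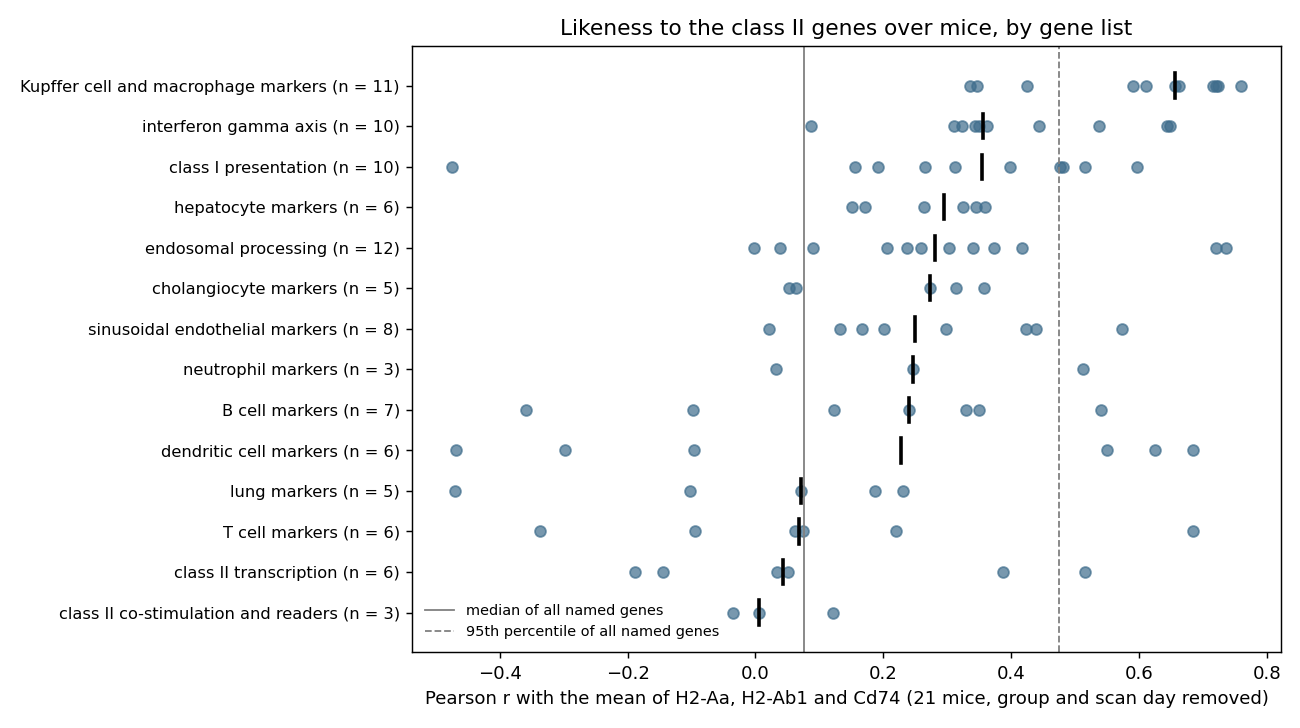
Pearson r of single genes (points, horizontal axis) with the mean of H2-Aa, H2-Ab1 and Cd74 over 21 mice, by gene list (rows), with a black bar at the list median. Grey lines mark the median (0.076) and the 95th percentile (0.47) of all named genes. The Kupffer cell and macrophage markers lie farthest to the right, with a median of 0.66.

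Further steps of the pathway were followed from lists of genes. Of 12 genes of endosomal processing, all above background on every array, 7 were higher and 5 lower at day 1 and 9 higher and 3 lower at day 28, with medians of 0.0084 and 0.035 and none called. Of these, 2 were above the 95th percentile of r with class II over mice: Marchf1 (0.74), the ligase that sends class II for degradation, and Ctss (0.72), cathepsin S, which cleaves the invariant chain. Ifi30, the thiol reductase of endosomes, had the only unadjusted p under 0.05 on this list, at 0.31 ± 0.13 (SE) at day 1. Its adjusted p was 0.9999 in limma, and 1.72% of all features had an unadjusted p under 0.05 in that comparison. At day 28 the largest differences were those of Ctss (0.26 ± 0.38, SE) and Ctsz, cathepsin Z (-0.17 ± 0.28), both within their error. The other class II chains H2-Eb2 and H2-DMb2 were on the array but dim on all arrays, and no probe was matched for H2-Ea.

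Of 9 genes of class II transcription, which hold the subunits of the X and Y box complexes and co-activators, 6 were tested. At day 1, 1 was higher and 5 lower (median -0.095), and at day 28 there were 3 of each (median 0.011), none called and 0 with an unadjusted p under 0.05. The largest differences were those of Nfyb, a Y box subunit, at day 1 (-0.33 ± 0.36, SE) and Rfxank, an X box subunit, at day 28 (0.22 ± 0.22). The list's median r with the class II genes was 0.043. The co-activator Kat2b had 0.52, Rfxank 0.39, Nfyb 0.033 and Rfxap -0.14, which spans both sides of the median of all genes.

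The interferon gamma axis, an inducer of Ciita, had 10 of 12 genes tested, with 6 higher and 4 lower at both times and medians of 0.088 and 0.0014. None was called. Irf1, a transcription factor of the interferon gamma response that acts on Ciita, had group means of 0.27 in control and -0.18 in TiO2 mice at day 1, and -0.37 and -0.42 at day 28. Its day 1 difference was -0.45 ± 0.14 (SE), with an adjusted p of 0.9999 in limma, and Ciita differed by -0.047 in the same mice. Controls of day 28 differed from those of day 1 by -0.64 ± 0.16 (SE) in Irf1, with an adjusted p of 0.92 in limma, while the receptor chain Ifngr2 differed by 0.34 ± 0.16. At day 28 the largest TiO2 differences were 0.16 ± 0.19 for the receptor chain Ifngr1 and 0.10 ± 0.15 for Igtp. Over mice, the interferon-induced GTPases Igtp and Gbp2 had r of 0.65 and 0.64 with the class II genes, Irf8 0.54 and Irf1 0.36, and the list's median was 0.36.

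Genes of class I presentation had the same median r, 0.36, over 10 genes, with the peptide loading factor Tapbp at 0.60, the transporter Tap1 at 0.52 and the chaperone Calr at -0.47. At day 1, 6 were higher and 4 lower, and at day 28, 7 higher and 3 lower, with 0 called. Calr (0.36 ± 0.12, SE) and the proteasome subunit Psmb10 (0.33 ± 0.15) had an unadjusted p under 0.05 at day 1, against 1.72% of all features. The adjusted p was 0.9999 for both in limma. Psmb9, another proteasome subunit, differed by 0.34 ± 0.15 between the controls of day 28 and day 1, and the chaperone Canx by 0.32 ± 0.41 after TiO2 at day 28. Of 10 genes for co-stimulation and reading of class II, 3 were tested (Cd274, Cd4 and Icosl), all 3 lower at day 1 by 0.033 to 0.097, with none called.

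The Kupffer cell and macrophage markers, the list most like the class II genes over mice, were higher in TiO2 mice for 9 of 11 at day 1 (median 0.11) and for 11 of 11 at day 28 (median 0.17), with 0 called and 0 at an unadjusted p under 0.05. With scan day as a block, 1 of the 11 had an unadjusted p under 0.05 at day 1 (C1qc), against 4.08% of all features, and 3 at day 28 (C1qb, C1qa and Vsig4), against 3.09% of all features, with 0 called. The class II genes at day 28 had a median of 0.080, or 0.11 with the block, with 5 of 7 higher. The 8 sinusoidal endothelial markers were all lower at day 1 (median -0.12) and all higher at day 28 (median 0.20), with 0 called and 0 at an unadjusted p under 0.05. With the block, 0 of the 8 at day 1 and 1 at day 28 (Fcgr2b) had an unadjusted p under 0.05. The part of these markers in the day 28 values of the class II genes was not tested.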

How the data were processed

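The deposited scanner files hold intensity values per spot, the median brightness of the spot and of its local background in 2 channels, not normalized, per the file headers. The deposited log10 ratio of the scanner software, background-subtracted and dye-normalized per the file headers, and the authors' deposited table of log2 values, which matched log2 of red over green from these arrays (r of 0.996 to 0.997), served as alternatives. The match also gave that table's scale and direction, which are not stated. Feature Extraction is given as 10.7.3.1 per the file headers and as 9.5.3.1 per the submitters' processing notes. The design text counts 22 arrays, of which 21 are used.

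Median signals were corrected for background with normexp (offset 50) in limma 3.58.1 under R 4.3.3, then by loess within arrays with control spots at weight 0, and spots of a probe were averaged. Spots marked as deviant were given the array's median background for the fit and then left out. Probes passed where liver signal was well above background on at least 50% of the arrays of a group. Symbols came from a RefSeq table of GRCm38.p6, since the files, made for mm8, hold none, and each gene was represented by its brightest probe that passed. The 17640 features (11255 named genes, 211 lacking a value on some array) were fitted in limma as 4 group means over 21 arrays, with Benjamini-Hochberg adjustment over all features. Correlations used 100000 permutations. The methods were tested on simulated data. Alternatives were the offset, background method, filter, scan day or slide as a block, array weights and leaving out each mouse. The genes, lists and tests were chosen with earlier results of these data known. The genes named by likeness were the 10 with the highest r, and those named for a difference in a pathway list had an unadjusted p under 0.05 or were among the largest differences. Marker genes and list genes named for their r were picked after their values were seen. The number of arrays limits the precision. Some genes of these lists are not reported here.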

Additional observations from a re-analysis of the deposited data

Results flagged for a closer look

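In the TiO2 mice of day 28, H2-DMa in replicate 2 stood apart from the other 5, with a log2 ratio of -0.57 against -0.22 for the nearest mouse, a gap of 0.65 of the group's range. It was the only 1 of 28 gene and group combinations with such a gap. Chance gives such a gap in about 1 in 20 combinations, so 1 of 28 is no more than chance would give. The combinations also share mice. The mouse was on scan day 1.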

How the results depend on the processing

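The 35 differences of class II genes were recomputed under 37 alternatives, 21 of which left out 1 mouse, giving 1295 values. None was called, the smallest adjusted p was 0.749 in limma, and the sign differed from the reported one in 142, all of differences that were not called. An unadjusted p under 0.05 was met 4 times: H2-DMa at day 1 was 0.38 without scan day 2, 0.30 with array weights and 0.27 without TiO2 day 1 replicate 3, and H2-Aa in controls over time was -0.45 without scan day 2. The cause was not tested. The count over all features at day 1 went from 0 to 3 with slide as a random block and 1 with array weights, and to between 0 and 3 with 1 mouse left out (3 without TiO2 day 1 replicate 2). It was 0 to 0 with a mouse left out at day 28 and for the change of the effect. For controls over time it was 14 with array weights and 0 to 1 with a mouse left out (1 without control day 1 replicate 4). For TiO2 mice over time it went from 6 to 3 with an offset of 10, 3 with all spots in the background fit, 2 with scaling between arrays, 1 from the deposited ratio, 19 with scan day and 31 with slide as a block, 14 with array weights, 1, 0 and 0 without scan days 1, 2 and 3, and 5 to 9 with a mouse left out. The 3 correlations kept their sign and side of 0.05 in Pearson's r with no terms removed (0.56, 0.54 and 0.88, in the order H2-Aa with H2-Ab1, H2-Aa with Cd74, H2-Ab1 with Cd74), with scan day alone removed (0.49, 0.46 and 0.85) and in the authors' deposited table (0.60, 0.63 and 0.79). With 1 mouse left out they ran from 0.45 to 0.69, 0.37 to 0.60 and 0.77 to 0.89. In Spearman's rho, H2-Aa with Cd74 missed 0.05 with scan day alone removed (rho 0.43, permutation p = 0.056, adjusted 0.056). Signal near background limits H2-Oa, Ciita and the scan day 1 arrays. No paired analysis was possible because the labels number the animals without tying them across groups.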
